A study of Mus musculus with 12 samples.

Results

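MC38 cells come from a colon adenocarcinoma of the mouse. Here they held a guide RNA, which is a control in one population (sgControl) and targets the lactate receptor gene Hcar1 in the other (sgHcar1). The data described here are the 6 RNA-seq libraries of these cells kept with saline vehicle (PBS), 3 with sgControl and 3 with sgHcar1, out of 12 libraries in the series. The other 6 libraries came from the same guides after 20 mM lactate for 24 hours. They are used below to read the guide difference a further time and to test whether it differs from that in PBS. They also enter the depth scale and a refit on all 12 libraries. Every group was MC38 with a guide, and the labels name no untransduced parent. They do not say whether either population was a single clone or a pool or whether both came from the same MC38 stock, so the guide cannot be told apart from the population that carried it. Nor do they say whether replicate libraries stem from cultures grown apart, so the p-values rest on a spread between libraries that may be technical. Of 42329 entries in the table of FPKM (fragments per kilobase of gene model and 1000000 fragments), 12772 had at least 1 FPKM in at least 3 of the 6 PBS libraries and were tested. The edge of this rule held 1838 entries with exactly 3 such libraries, just inside it, and 465 with exactly 2, just outside it.

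HCAR1 is a G protein-coupled receptor that binds lactate. It couples to inhibitory G proteins, which lower the activity of adenylyl cyclases and so the level of cyclic AMP, and it is best known from fat cells, where it restrains lipolysis. In tumours it has been studied as a route by which lactate made in glycolysis signals back to the cells that release it. With PBS alone, this comparison addresses what differs between the guide populations before any lactate is added.

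Levels are FPKM, given for single libraries in the order of the replicate numbers or as mean ± SD (n = 3 per guide). Differences are sgHcar1 minus sgControl on the scale of log2(FPKM + 1), with the standard error from limma. They understate the change of genes at low levels, and for genes at or near 0 with 1 guide they depend on the added 1. Genes under 1 FPKM in every library of 1 guide were tested through the other guide alone. The direction of such genes was set by the filter. A gene is called higher or lower in sgHcar1 cells where limma's p, adjusted over all 12772 genes, was under 0.05. Between 11822 and 12128 entries per PBS library reached 1 FPKM, and no counts are in the file. The depth of the libraries relative to the deepest of the 12, read from the steps between low values, was 0.887 to 1 with sgControl and 0.865 to 0.933 with sgHcar1.

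The targeted gene could not be followed in these libraries. Whether its transcript was absent or too rare for their depth was not tested. In lactate the mean of Hcar1 was listed at 0 FPKM with both guides. In the sgControl libraries Hcar1 stood at 0 FPKM throughout, and in the sgHcar1 libraries at 0.0196, 0 and 0 FPKM (exact two-sided permutation test on 3 against 3 libraries, p = 1.0, with 0.1 the lowest p this design allows). Hcar2, the neighbouring niacin receptor gene, was at 0, 0 and 0.0292 FPKM with sgControl and listed at 0 in the sgHcar1 libraries (exact permutation p = 1.0). The values therefore give no check of the guide labels. None of the 12 entries for receptors of lactate, protons, fatty acids and succinate reached the level for testing. Of 23 tested genes of inhibitory G proteins and cyclic AMP signalling, 7 were higher (30.4%) and 11 lower (47.8%). Over all genes tested these shares were 39.4% and 39.6%. The adenylyl cyclase genes Adcy3 (10.03 ± 0.364 FPKM with sgControl and 0.639 ± 0.0428 FPKM with sgHcar1) and Adcy7 (42.6 ± 0.463 FPKM with sgControl and 7.63 ± 0.616 FPKM with sgHcar1) were lower, as was Rgs16, which shortens G protein signals (14.7 ± 0.496 FPKM with sgControl and 0.0362 ± 0.0163 FPKM with sgHcar1). Prkar2b, a regulatory subunit of protein kinase A, was higher (11.4 ± 0.827 FPKM with sgControl and 67.4 ± 2.10 FPKM with sgHcar1, difference 2.47 ± 0.053). Gnao1, an inhibitory G protein subunit of neural cells, was at 3.61 ± 0.0889 FPKM in sgControl cells and listed at 0 with sgHcar1.

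The guide populations differed across most of the transcriptome. Of the 12772 genes tested, 10097 (79.1%) passed, 5037 (39.4%) higher and 5060 (39.6%) lower in sgHcar1 cells. At least 2-fold differences were seen for 2708 of them (21.2%), 1166 higher (9.13%) and 1542 lower (12.1%). The libraries of the guides did not overlap for 10354 genes (81.1%). These shares are the background against which the gene groups below are read. For 502 genes the mean was at least 1 FPKM with sgControl and under 0.1 FPKM with sgHcar1, and for 239 the reverse held. The Pearson correlation of log2(FPKM + 1) across the genes tested was 0.992 to 0.993 between libraries of a group and 0.813 to 0.816 between the guides in PBS. When each library was rescaled to the same FPKM sum, the median of all genes shifted by -0.17 and the calls became 3856 higher and 6181 lower. The deposited values summed to 322359.4 to 324562.3 FPKM per library with sgControl and 362814.6 to 367976.7 FPKM with sgHcar1.

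**Figure D1:**
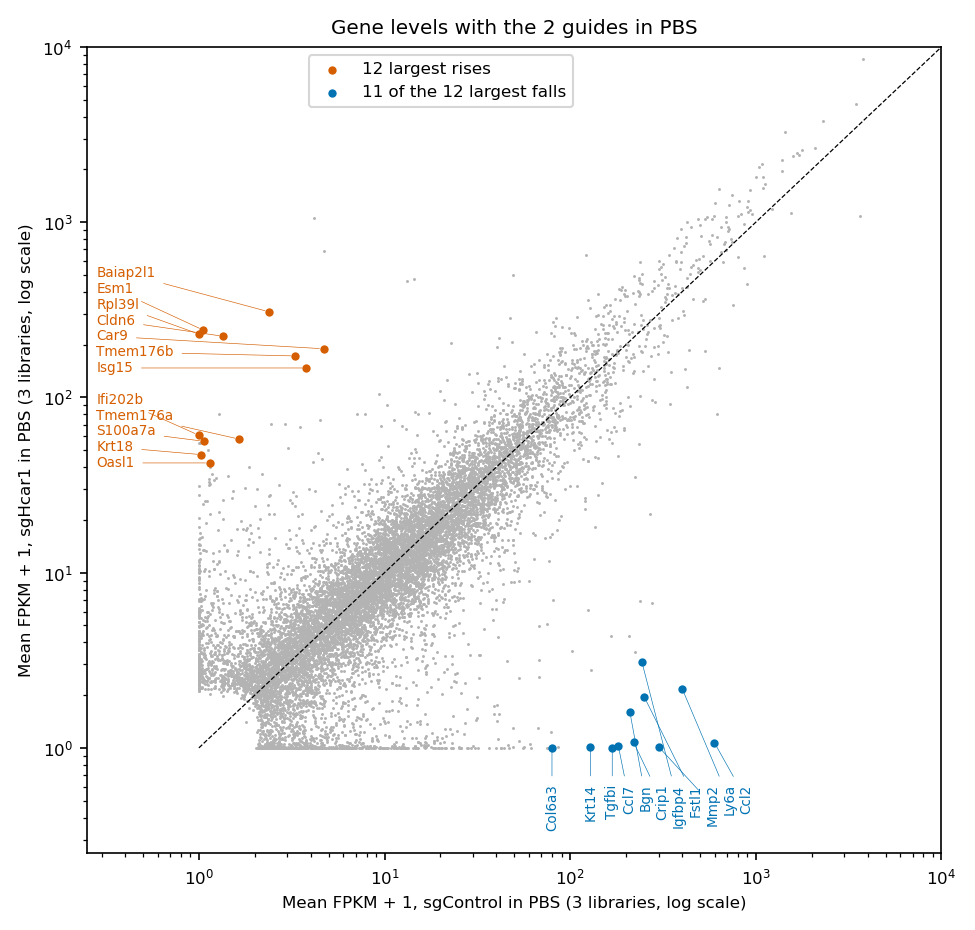
Mean FPKM + 1 of 12772 tested genes in the 3 sgControl libraries (x axis, log scale) against the 3 sgHcar1 libraries (y axis, log scale), both in PBS. Grey points are all tested genes, and coloured points with names are the named genes of the 12 largest rises and 12 largest falls. The labelled genes lie along the axes, with Ccl2 at a mean of 597.5 FPKM with sgControl and Esm1 at 241 FPKM with sgHcar1.

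The largest falls were in secreted and matrix genes. Ccl2, a chemokine that attracts monocytes, was at 563, 616 and 613 FPKM with sgControl and 0.0565, 0 and 0.159 FPKM with sgHcar1 (difference -9.13 ± 0.063, adjusted p = 5.62e-10). Ccl7, its neighbour with a like function, was at 179.6, 185 and 178 FPKM with sgControl and 0, 0.0813 and 0 FPKM with sgHcar1 (-7.47 ± 0.043, adjusted p = 3.65e-10). Mmp2, a gelatinase that cuts basement membrane collagen, was at 308, 296 and 298 FPKM with sgControl and 0, 0.0214 and 0 FPKM with sgHcar1 (-8.23 ± 0.031, adjusted p = 1.4e-10). All 3 genes were abundant in every sgControl library and near 0 in every sgHcar1 library. The 12 rises and 12 falls were picked among genes without overlap of the guides, so their separation was set by that choice. Crip1, a small LIM-domain protein gene, was at 216, 216 and 225 FPKM with sgControl and 0.0282, 0.114 and 0.0795 FPKM with sgHcar1. Ly6a, which encodes the surface antigen Sca-1, was at 394, 402 and 405 FPKM with sgControl and 1.07, 1.62 and 0.852 FPKM with sgHcar1. Tgfbi, a matrix protein gene named for its induction by TGF-beta, was at 168 ± 0.284 FPKM in sgControl and listed at 0 in the 3 sgHcar1 libraries. The same pattern, high in each sgControl library and low in each sgHcar1 library, held for the other named genes of the 12 largest falls. They were the proteoglycan gene Bgn (209 ± 6.82 FPKM with sgControl and 0.594 ± 0.134 FPKM with sgHcar1), the follistatin-like Fstl1 (249 ± 4.65 FPKM with sgControl and 0.963 ± 0.105 FPKM with sgHcar1) and the basal keratin gene Krt14 (128 ± 4.08 FPKM with sgControl and 0.0116 ± 0.0201 FPKM with sgHcar1). Igfbp4, which binds insulin-like growth factors, was at 243 ± 9.38 FPKM with sgControl and 2.09 ± 0.0957 FPKM with sgHcar1, and the collagen VI gene Col6a3 was at 78.8 ± 3.005 FPKM in sgControl cells and listed at 0 with sgHcar1.

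The largest rises were more mixed in kind. Rpl39l, a paralogue of the ribosomal protein gene Rpl39 known from testis, was listed at 0 in the sgControl libraries and at 229 ± 10.3 FPKM in the sgHcar1 libraries. Esm1, an endothelial proteoglycan gene also made by tumours, was at 0.0549, 0.0909 and 0.0269 FPKM with sgControl and 251, 243 and 229 FPKM with sgHcar1 (7.84 ± 0.045, adjusted p = 3.65e-10). Cldn6, a tight junction claudin of embryonic epithelium, was at 0.421, 0.253 and 0.374 FPKM with sgControl and 227, 227 and 213 FPKM with sgHcar1 (7.37 ± 0.055, adjusted p = 8e-10). Each of these genes was near 0 with sgControl and above 200 FPKM in all 3 sgHcar1 libraries. Baiap2l1, a membrane-bending adaptor gene, was at 1.28, 1.36 and 1.52 FPKM with sgControl and 309, 306 and 305 FPKM with sgHcar1. Ifi202b, of the interferon-inducible Ifi200 family, was listed at 0 with sgControl and at 59.8 ± 3.65 FPKM with sgHcar1. Ifi200 genes are near-identical copies of each other, so its level is uncertain. The other rises were S100a7a, a calcium-binding protein gene (0.0612 ± 0.0251 FPKM with sgControl and 55.2 ± 2.91 FPKM with sgHcar1), the neighbours Tmem176b (2.29 ± 0.218 FPKM with sgControl and 172 ± 8.09 FPKM with sgHcar1) and Tmem176a (0.642 ± 0.0467 FPKM with sgControl and 56.9 ± 3.28 FPKM with sgHcar1), and Krt18, a simple epithelial keratin gene (0.0274 ± 0.0475 FPKM with sgControl and 46.2 ± 1.96 FPKM with sgHcar1). Car9, a hypoxia-induced carbonic anhydrase gene, was at 3.69 ± 0.390 FPKM with sgControl and 189 ± 5.04 FPKM with sgHcar1. Isg15 (2.78 ± 0.715 FPKM with sgControl and 146 ± 5.86 FPKM with sgHcar1) and Oasl1 (0.143 ± 0.00966 FPKM with sgControl and 41.3 ± 1.45 FPKM with sgHcar1), both interferon-stimulated, completed the 12.

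**Figure D2:**
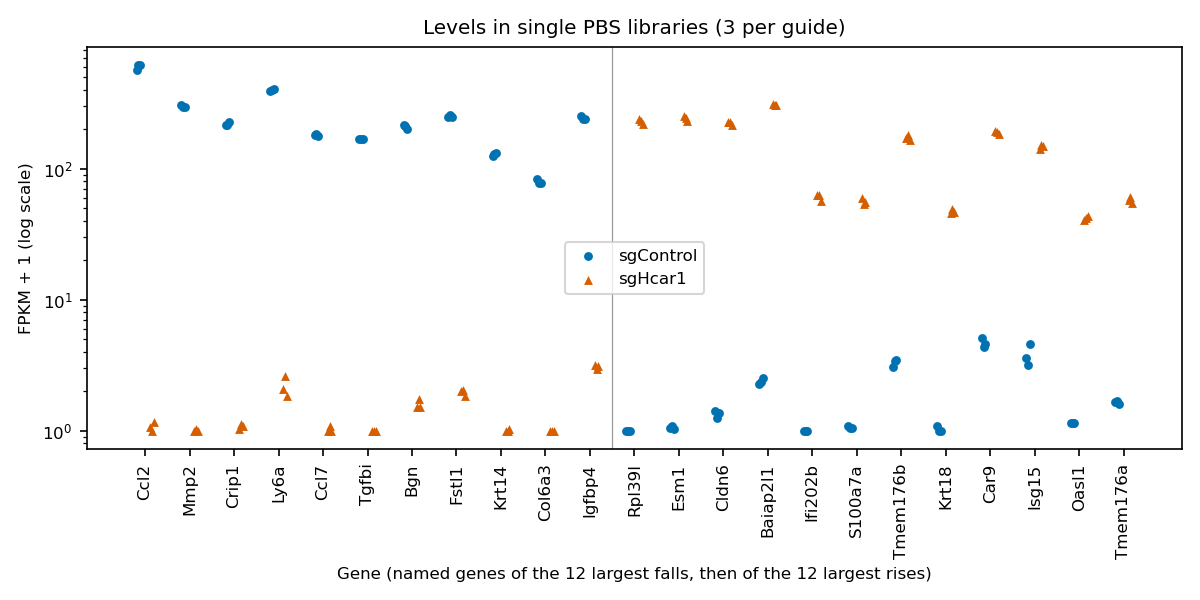
FPKM + 1 (y axis, log scale) of the named genes of the 12 largest falls and 12 largest rises (x axis) in single PBS libraries, with circles for the 3 sgControl and triangles for the 3 sgHcar1 libraries. The 3 libraries of a guide lie close together for each gene. Genes were picked among those where the guides do not overlap, so their separation was set by that choice.

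Interferon-stimulated genes, which cells switch on after viral infection or interferon, were higher in sgHcar1 cells almost without exception. Of 37 tested, 36 were higher and 1 was lower, with 34 at least 2-fold higher, against 39.4% of all genes higher and 9.13% at least 2-fold higher (median difference 2.29, against 0.0081 over all genes). Isg15, a ubiquitin-like modifier, was at 2.59, 2.18 and 3.57 FPKM with sgControl and 139.6, 150.2 and 149 FPKM with sgHcar1 (difference 5.30 ± 0.13, adjusted p = 6.69e-08). Rtp4 was at 0.513, 0.485 and 0.322 FPKM with sgControl and 34.5, 36.2 and 32.6 FPKM with sgHcar1 (4.62 ± 0.068). Ifi44 was at 0.0282, 0.0518 and 0.0643 FPKM with sgControl and 23.1, 24.6 and 23.3 FPKM with sgHcar1 (4.56 ± 0.047). For Isg15 the lowest sgHcar1 library stood above the highest sgControl library. Rtp4, Ifi44 and Oasl1 were under 1 FPKM in every sgControl library. Such genes of the list were tested through the sgHcar1 libraries alone. Their direction was set by the filter, though they count among the 36. Also higher were the oligoadenylate synthetase-like genes Oasl1 (5.21 ± 0.043) and Oasl2 (4.28 ± 0.055), which may share reads with their relatives, and Ifi27 (36.02 ± 0.524 FPKM with sgControl and 111 ± 2.80 FPKM with sgHcar1). Bst2, which tethers budding virus particles, had the highest level of the list (46.5 ± 3.81 FPKM with sgControl and 284 ± 9.38 FPKM with sgHcar1). The exception was Ifit2 (16.1 ± 0.676 FPKM with sgControl and 8.61 ± 0.212 FPKM with sgHcar1, difference -0.83 ± 0.042). The genes that carry the interferon signal went both ways. Of 17 tested receptors, kinases, sensors and regulatory factors, 6 were higher and 11 lower (median -0.46). Mb21d1, the DNA sensor cGAS, was higher (2.40 ± 0.0680 FPKM with sgControl and 9.74 ± 0.841 FPKM with sgHcar1) and Jak2 was higher (9.04 ± 0.353 FPKM with sgControl and 17.4 ± 0.666 FPKM with sgHcar1), while the receptor gene Ifngr2 (11.7 ± 0.386 FPKM with sgControl and 4.61 ± 0.327 FPKM with sgHcar1) and the factor genes Irf5 (1.86 ± 0.230 FPKM with sgControl and 0.216 ± 0.0482 FPKM with sgHcar1) and Irf1 (17.7 ± 0.593 FPKM with sgControl and 9.50 ± 0.469 FPKM with sgHcar1) were lower.

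Promoters of this group are shown because its members moved together and because interferon-stimulated genes are known for a shared element, the ISRE, searched here on both strands as GAAA, any 2 bases and GAAA again. The following are the 250 bases before the start of the 3 genes with the largest differences that held a match, 5′ to 3′ on the gene's strand, from RefSeq on GRCm38.p6, with matches in capitals.
Isg15, chr4:156200819-156201068, minus strand: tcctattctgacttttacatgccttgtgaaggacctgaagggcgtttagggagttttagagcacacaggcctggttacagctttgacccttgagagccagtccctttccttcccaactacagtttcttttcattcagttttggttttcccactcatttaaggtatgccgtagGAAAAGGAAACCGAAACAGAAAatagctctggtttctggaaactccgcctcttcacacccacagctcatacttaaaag
Gbp3, chr3:142559794-142560043, plus strand: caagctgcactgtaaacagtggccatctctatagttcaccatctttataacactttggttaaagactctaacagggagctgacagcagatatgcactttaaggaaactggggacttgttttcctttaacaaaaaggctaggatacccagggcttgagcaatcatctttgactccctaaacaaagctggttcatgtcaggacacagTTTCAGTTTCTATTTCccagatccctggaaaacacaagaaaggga
Ifit1, chr19:34640639-34640888, plus strand: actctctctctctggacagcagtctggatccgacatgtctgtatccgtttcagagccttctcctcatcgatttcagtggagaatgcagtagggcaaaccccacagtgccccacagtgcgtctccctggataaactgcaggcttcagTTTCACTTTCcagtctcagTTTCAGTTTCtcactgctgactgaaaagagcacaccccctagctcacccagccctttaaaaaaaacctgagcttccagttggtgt
Beside these sequences, Gbp3, an interferon-inducible GTPase gene, was at 0.498 ± 0.0497 FPKM with sgControl and 14.3 ± 0.597 FPKM with sgHcar1. Ifit1, which binds viral RNA, was at 0.416 ± 0.145 FPKM with sgControl and 12.5 ± 0.910 FPKM with sgHcar1. Both were tested through the sgHcar1 libraries alone, so their direction was set by the filter. Of the 37 tested interferon-stimulated genes 27 (73.0%) had a promoter in the table, under the 80% required here to read a share, so none is given for the list. Over all 27025 genes with a promoter of 300 bases there, 3.99% held a match.

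Genes of the major histocompatibility complex and antigen processing were split. Of 16 tested, 7 were higher and 7 lower. H2-K1, a classical class I heavy chain, was lower (231, 230.04 and 242 FPKM with sgControl and 56.4, 54.6 and 49.3 FPKM with sgHcar1, difference -2.11 ± 0.052), and so were the immunoproteasome gene Psmb8 (6.52 ± 0.449 FPKM with sgControl and 1.01 ± 0.265 FPKM with sgHcar1) and Nlrc5, which drives class I transcription (5.14 ± 0.0313 FPKM with sgControl and 0.812 ± 0.0798 FPKM with sgHcar1). H2-M3 (7.56 ± 0.723 FPKM with sgControl and 28.6 ± 1.43 FPKM with sgHcar1) and the peptide transporter gene Tap2 (3.55 ± 0.183 FPKM with sgControl and 12.1 ± 0.452 FPKM with sgHcar1) were higher, and B2m, the class I light chain, was lower by a small amount (662 ± 24.3 FPKM with sgControl and 591 ± 10.1 FPKM with sgHcar1). Class I genes resemble each other to differing degrees and may share reads, so the level of H2-K1, and perhaps that of H2-M3, is uncertain. Of 9 tested checkpoint ligands and immune surface genes 6 were higher and 3 lower. Cd80, a costimulatory ligand, was at 0.0916 ± 0.0355 FPKM with sgControl and 3.84 ± 0.952 FPKM with sgHcar1 and Cd274, which encodes PD-L1, was at 0.360 ± 0.135 FPKM with sgControl and 1.77 ± 0.0987 FPKM with sgHcar1, both higher, while the adhesion gene Nectin3 was at 3.52 ± 0.101 FPKM with sgControl and listed at 0 with sgHcar1.

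Chemokine and NF-kB genes were mostly lower in sgHcar1 cells. Among CC and CX3C chemokines, 6 of 19 entries reached the level for testing, 5 of them lower and 1 higher. Beside Ccl2 and Ccl7 these were Ccl8 (10.7 ± 1.65 FPKM with sgControl, listed at 0 with sgHcar1), Cx3cl1 (2.32 ± 0.127 FPKM with sgControl and 0.0719 ± 0.0540 FPKM with sgHcar1) and Ccl25 (8.43 ± 0.545 FPKM with sgControl and 3.90 ± 0.271 FPKM with sgHcar1). Except for Ccl25, the lower genes were tested through the sgControl libraries alone, so their direction was set by the filter. Ccl5, which attracts T cells, was the one that was higher (1.68, 1.79 and 1.88 FPKM with sgControl and 6.03, 6.24 and 7.93 FPKM with sgHcar1, difference 1.47 ± 0.097). Of 3 CXC chemokines tested, the neutrophil attractant Cxcl1 (44.5 ± 2.61 FPKM with sgControl and 2.14 ± 0.137 FPKM with sgHcar1) and Cxcl16 (14.2 ± 1.15 FPKM with sgControl and 0.0740 ± 0.0686 FPKM with sgHcar1) were lower and Cxcl10 was not called (2.21 ± 0.440 FPKM with sgControl and 2.94 ± 0.493 FPKM with sgHcar1). Cxcl16 too was tested through the sgControl libraries alone. Of 23 genes of the NF-kB pathway and its targets, 20 were lower and 2 higher, against 39.6% and 39.4% of all genes (median -1.001, and -1.63 after rescaling to the same sum). Nfkbia, the inhibitor that NF-kB itself induces, was at 74.97, 77.4 and 84.2 FPKM with sgControl and 16.3, 15.98 and 14.7 FPKM with sgHcar1 (-2.26 ± 0.056, adjusted p = 8.79e-08). Its values were lower in each sgHcar1 library than in any sgControl library. Saa3, an acute phase protein gene (15.8 ± 1.45 FPKM with sgControl and 0.360 ± 0.129 FPKM with sgHcar1), the complement gene C3 (15.9 ± 0.536 FPKM with sgControl and 1.09 ± 0.151 FPKM with sgHcar1) and Traf1 (6.68 ± 0.101 FPKM with sgControl and 0.530 ± 0.0336 FPKM with sgHcar1) were also lower. Higher were Tnfaip3, which encodes the deubiquitinase A20 (1.77 ± 0.219 FPKM with sgControl and 8.93 ± 0.249 FPKM with sgHcar1), and Ptgs2, the inducible prostaglandin synthase (12.6 ± 0.906 FPKM with sgControl and 44.3 ± 1.36 FPKM with sgHcar1).

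Other secreted mediators went both ways. Of 12 myeloid growth factors and cytokines 6 were higher and 6 lower. Il34, a ligand of the macrophage receptor CSF1R, was at 66.6, 67.5 and 66.9 FPKM with sgControl and 4.04, 4.19 and 3.58 FPKM with sgHcar1 (-3.79 ± 0.05), while Csf1, the other ligand of that receptor, was at 60.8, 57.4 and 60.9 FPKM with sgControl and 92.8, 94.2 and 108 FPKM with sgHcar1 (0.71 ± 0.063). The pair thus stood in opposite directions, with no overlap between guides for either. Spp1, which encodes osteopontin, was higher (121 ± 6.16 FPKM with sgControl and 649 ± 30.3 FPKM with sgHcar1), as was Mif (932 ± 22.9 FPKM with sgControl and 1528 ± 25.6 FPKM with sgHcar1), and Il18 was lower (1.88 ± 0.485 FPKM with sgControl and 0.0582 ± 0.0505 FPKM with sgHcar1). Of 7 acute phase and complement genes tested 5 were lower and 2 higher, Lcn2 among the former (5.84 ± 0.309 FPKM with sgControl and 0.664 ± 0.146 FPKM with sgHcar1) and the copper carrier gene Cp among the latter (0.721 ± 0.0221 FPKM with sgControl and 5.52 ± 0.203 FPKM with sgHcar1). Prostaglandin genes were split, 6 higher and 4 lower of 10 (4 and 4 after rescaling to the same sum), with the lipocalin-type synthase gene Ptgds at 0.184 ± 0.144 FPKM with sgControl and 5.74 ± 0.201 FPKM with sgHcar1. Of 17 angiogenic factors and receptors 9 were higher and 7 lower. Genes of secreted semaphorins, guidance factors for nerves and vessels, were on both sides, with Sema3a at 0.148 ± 0.0205 FPKM with sgControl and 30.9 ± 0.612 FPKM with sgHcar1 and Sema3b at 21.6 ± 0.435 FPKM with sgControl and 0.287 ± 0.0243 FPKM with sgHcar1. Sema3c was at 12.3 ± 0.509 FPKM in sgControl libraries and listed at 0 with sgHcar1.

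**Figure D3:**
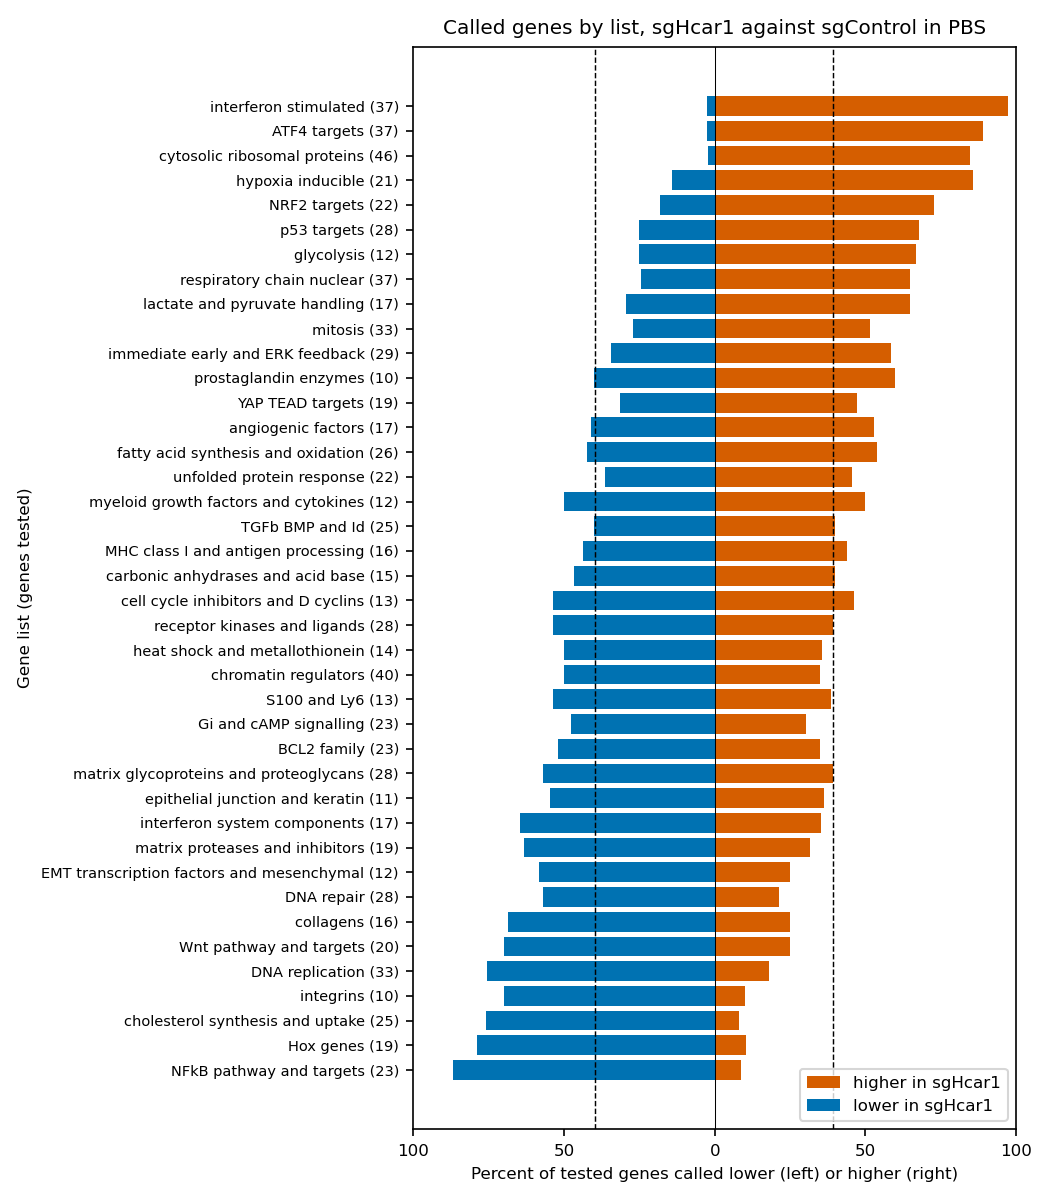
Percent of the tested genes of each list called higher (right, orange) or lower (left, blue) in sgHcar1 cells in PBS. The number after each name is the number of genes tested, lists with at least 10 are drawn, and dashed lines mark 39.4% and 39.6%, the shares over all genes. Interferon-stimulated genes, ATF4 targets, hypoxia genes and ribosomal proteins reach far to the right, and NF-kB, replication, cholesterol and Hox genes to the left.

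Genes of the extracellular matrix were lower more often than higher. Of 16 collagen genes tested, 11 were lower and 4 higher, with 8 at least 2-fold lower (12.1% of all genes). The 3 collagen VI genes, which form a beaded network around cells, fell together. Col6a1 was at 204, 206 and 209 FPKM with sgControl and 3.48, 3.28 and 3.27 FPKM with sgHcar1 (-5.58 ± 0.03, adjusted p = 3.65e-10), Col6a2 at 54.4 ± 1.20 FPKM with sgControl and 0.00258 ± 0.00446 FPKM with sgHcar1 and Col6a3 as above. Col3a1, a fibrillar collagen gene, was lower (65.4, 67.8 and 68.2 FPKM with sgControl and 1.39, 1.64 and 1.63 FPKM with sgHcar1, -4.74 ± 0.049). The collagen I genes went the other way. Col1a1 was at 0.924, 1.05 and 1.07 FPKM with sgControl and 22.1, 22.98 and 24.4 FPKM with sgHcar1 (3.58 ± 0.054), and Col1a2 was at 45.7, 45.04 and 45.8 FPKM with sgControl and 112, 113 and 118 FPKM with sgHcar1 (1.31 ± 0.029). Of 28 matrix glycoproteins and proteoglycans 16 were lower and 11 higher. Sparc, which binds collagen, was at 615 ± 7.98 FPKM with sgControl and 78.99 ± 1.48 FPKM with sgHcar1, the fibrillin gene Fbn1 at 66.1 ± 2.76 FPKM with sgControl and 0.299 ± 0.0542 FPKM with sgHcar1 and Ecm1 at 274 ± 11.3 FPKM with sgControl and 5.68 ± 0.284 FPKM with sgHcar1, all lower. Fn1, the fibronectin gene, was at 23.1, 20.6 and 21.9 FPKM with sgControl and 203, 194 and 215 FPKM with sgHcar1 (3.17 ± 0.053), higher in each sgHcar1 library.

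Matrix proteases and their inhibitors showed the same tendency, with 12 of 19 lower and 6 higher. The inhibitor genes Timp2 (342 ± 8.73 FPKM with sgControl and 90.2 ± 4.92 FPKM with sgHcar1) and Timp3 (55.2 ± 2.84 FPKM with sgControl and 0.0152 ± 0.0125 FPKM with sgHcar1) were lower, as was the collagen crosslinking gene Loxl1 (13.1 ± 0.777 FPKM with sgControl and 0.135 ± 0.0801 FPKM with sgHcar1). Mmp3, the stromelysin gene, was higher (0.110 ± 0.0489 FPKM with sgControl and 4.52 ± 0.896 FPKM with sgHcar1), and so was Ctsl, a lysosomal protease gene with a high level in both populations (419 ± 9.33 FPKM with sgControl and 756 ± 6.41 FPKM with sgHcar1). Of 10 integrins tested 7 were lower and 1 higher. Itgb4, the hemidesmosome subunit, was at 39.1, 38.9 and 40.4 FPKM with sgControl and 0.468, 0.371 and 0.439 FPKM with sgHcar1 (-4.83 ± 0.044), and its partner Itga6 was the gene that was higher (7.08, 6.85 and 6.49 FPKM with sgControl and 23.5, 23.7 and 23.3 FPKM with sgHcar1, 1.65 ± 0.038). Itgb7 was lower (136 ± 1.93 FPKM with sgControl and 17.1 ± 1.70 FPKM with sgHcar1).

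Markers of cell type were low or split in both populations. Of 8 epithelial markers 5 were under 1 FPKM in every PBS library, and Epcam was listed at 0 in all 6. Krt8, the usual partner of Krt18, was at 0.0310 ± 0.00201 FPKM with sgControl and 0.0775 ± 0.0206 FPKM with sgHcar1, also in the cells where Krt18 had a mean of 46.2 FPKM. Cdh1, which encodes E-cadherin, was at 1.72 ± 0.210 FPKM with sgControl and listed at 0 with sgHcar1. Of 5 colon epithelium markers with an entry 4 stayed under 1 FPKM in all libraries and Cdx2 was listed at 0, so the labelled tissue was not visible from these markers. Summed over 10 fibroblast markers, libraries held 274 to 284 FPKM with sgControl and 185 to 195 FPKM with sgHcar1. Of these 10, 7 reached the level for testing, 2 at least 2-fold higher and 5 at least 2-fold lower in sgHcar1 cells. The other 3 stayed under 1 FPKM in every PBS library, Lum and Thy1 being listed at 0 in all 6. Of 11 leukocyte markers with an entry 9 were under 1 FPKM in every library, and the sums were 16.2 to 16.5 FPKM and 9.28 to 9.71 FPKM. Endothelial markers summed to 1.05 to 1.38 FPKM with sgControl and 1.85 to 1.94 FPKM with sgHcar1. The muscle markers summed to 20.1 to 21.5 FPKM and 6.29 to 7.07 FPKM, nearly all from Tnnt2. Neural and melanocyte markers summed to 219.99 to 228 FPKM and 4.04 to 5.53 FPKM, nearly all from Tubb3, a tubulin gene of neurons and many tumour lines (223 ± 3.92 FPKM with sgControl and 2.53 ± 0.692 FPKM with sgHcar1). In bulk RNA, fewer cells of a kind and less RNA per cell cannot be told apart, and the part of such cells in the results was not tested.

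Junction genes and regulators of the epithelial and mesenchymal states did not move as a body. Of 11 junction and keratin genes tested 4 were higher, led by Cldn6 and Krt18, and 6 lower, led by Krt14. Of 12 transcription factors and mesenchymal genes 3 were higher and 7 lower. Vim, the vimentin gene, was abundant in both populations (864 ± 15.2 FPKM with sgControl and 972 ± 13.98 FPKM with sgHcar1), and its small difference changed sign with the scaling of the libraries. Cdh2, which encodes N-cadherin, was higher (4.98 ± 0.231 FPKM with sgControl and 12.6 ± 0.310 FPKM with sgHcar1), as was the factor gene Twist1 (28.2 ± 1.96 FPKM with sgControl and 40.98 ± 1.94 FPKM with sgHcar1). The developmental factor genes Foxc2 (14.6 ± 0.704 FPKM with sgControl and 0.422 ± 0.111 FPKM with sgHcar1) and Prrx1 (25.01 ± 0.566 FPKM with sgControl and 9.23 ± 0.275 FPKM with sgHcar1) were lower. Among 6 colon differentiation genes tested, Klf4 was lower (119 ± 3.16 FPKM with sgControl and 25.8 ± 0.728 FPKM with sgHcar1) and Klf5 higher (4.66 ± 0.275 FPKM with sgControl and 12.7 ± 1.33 FPKM with sgHcar1). Gata6 was at 5.24 ± 0.197 FPKM with sgControl and listed at 0 with sgHcar1, whereas Gata4 was listed at 0 with sgControl and at 1.68 ± 0.453 FPKM with sgHcar1.

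Genes of body patterning and Wnt signalling were lower more often than higher. Of 19 Hox genes tested 15 were lower and 2 higher, with 9 at least 2-fold lower (median -0.99, and -1.66 after rescaling to the same sum). Hoxb9 was at 16.4, 16.9 and 17.02 FPKM with sgControl and 1.10, 1.37 and 1.22 FPKM with sgHcar1 (-2.998 ± 0.055, adjusted p = 2.33e-08). Hoxc9, Hoxc10 and Hoxc11 were at 8.95 ± 0.597, 14.03 ± 0.0276 and 13.2 ± 0.835 FPKM in sgControl cells and listed at 0 with sgHcar1. Hoxb7 was at 11.1 ± 1.02 FPKM with sgControl and likewise listed at 0. Hoxb7, Hoxc9, Hoxc10 and Hoxc11 were thus tested through the sgControl libraries alone, so their direction was set by the filter. Hoxc6, of the same cluster as Hoxc9, was at 19.3 ± 0.936 FPKM with sgControl and 14.7 ± 0.764 FPKM with sgHcar1. Of 20 Wnt pathway genes 14 were lower and 5 higher. The transcription factor genes Sox9 (67.3, 68.3 and 64.96 FPKM with sgControl and 1.90, 2.53 and 2.04 FPKM with sgHcar1, -4.43 ± 0.075) and Tcf7 (15.3 ± 0.539 FPKM with sgControl and 0.00705 ± 0.0122 FPKM with sgHcar1) were lower, as were the Wnt antagonist gene Dkk2 (39.9 ± 0.943 FPKM with sgControl and 0.120 ± 0.0383 FPKM with sgHcar1) and the ligand gene Wnt5a (7.38 ± 0.672 FPKM with sgControl and 0.00911 ± 0.00789 FPKM with sgHcar1). Ctnnb1, the beta-catenin gene, was at 185 ± 2.24 FPKM with sgControl and 91.8 ± 2.19 FPKM with sgHcar1. Fzd6, a Wnt receptor gene, was listed at 0 with sgControl and at 10.8 ± 0.291 FPKM with sgHcar1.

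Growth factor genes went both ways. Of 28 genes of receptor tyrosine kinases and their ligands 11 were higher and 15 lower, with 8 at least 2-fold higher and 10 at least 2-fold lower. Fgfr1 was lower (39.1, 36.4 and 37.6 FPKM with sgControl and 0.802, 0.690 and 0.723 FPKM with sgHcar1, difference -4.48 ± 0.046), and Efnb2, which encodes the ligand ephrin-B2, was higher (1.53, 1.48 and 1.2505 FPKM with sgControl and 25.7, 26.9 and 27.9 FPKM with sgHcar1, 3.52 ± 0.059). The EGF receptor ligand gene Ereg was higher (0.367 ± 0.113 FPKM with sgControl and 13.3 ± 0.809 FPKM with sgHcar1). Of 29 immediate early and ERK feedback genes 17 were higher and 10 lower, with the transcription factor gene Egr1 at 0.912, 0.808 and 0.628 FPKM with sgControl and 28.7, 30.2 and 29.8 FPKM with sgHcar1 (4.10 ± 0.066). The dual-specificity phosphatase genes were split, Dusp6 (20.4 ± 1.42 FPKM with sgControl and 63.4 ± 1.69 FPKM with sgHcar1) being higher and Dusp1 (39.1 ± 1.27 FPKM with sgControl and 5.16 ± 0.545 FPKM with sgHcar1) and Dusp4 (90.2 ± 2.94 FPKM with sgControl and 38.8 ± 1.89 FPKM with sgHcar1) lower. For TGF-beta and BMP genes the count was 10 higher and 10 lower of 25 (9 and 12 after rescaling to the same sum), with the activin antagonist gene Fst higher (0.257 ± 0.117 FPKM with sgControl and 6.86 ± 0.153 FPKM with sgHcar1) and Id1 lower (60.05 ± 5.29 FPKM with sgControl and 26.99 ± 1.27 FPKM with sgHcar1). Of 19 YAP and TEAD genes 9 were higher and 6 lower, but 7 and 9 after rescaling to the same sum, with the tissue factor gene F3 higher (0.291 ± 0.128 FPKM with sgControl and 12.4 ± 0.255 FPKM with sgHcar1).

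Genes that respond to amino acid shortage and other translation stress were higher in sgHcar1 cells without lactate. Of 37 tested genes of the transcription factor ATF4 and its targets, 33 were higher and 1 was lower. At least 2-fold higher were 22 (median 1.14, against 0.0081 over all genes). Trib3, a pseudokinase gene induced by ATF4, was at 9.73, 8.46 and 6.97 FPKM with sgControl and 105, 103 and 102 FPKM with sgHcar1 (difference 3.48 ± 0.10, adjusted p = 1.65e-07). Asns, asparagine synthetase, was at 40.3, 39.9 and 37.4 FPKM with sgControl and 197, 194 and 185 FPKM with sgHcar1 (2.27 ± 0.039, adjusted p = 1.83e-08). Shmt2, of mitochondrial serine breakdown, was at 41.5, 37.9 and 42.1 FPKM with sgControl and 211, 212 and 232 FPKM with sgHcar1 (2.40 ± 0.054). The 3 genes were higher in every sgHcar1 library than in any sgControl library. Atf4 itself was at 221 ± 5.25 FPKM with sgControl and 495 ± 15.2 FPKM with sgHcar1, and Vldlr (3.62 ± 0.230 FPKM with sgControl and 43.2 ± 1.14 FPKM with sgHcar1), Sesn2 (2.94 ± 0.287 FPKM with sgControl and 28.9 ± 1.78 FPKM with sgHcar1) and Aldh1l2, of mitochondrial folate metabolism (3.20 ± 0.272 FPKM with sgControl and 28.2 ± 1.10 FPKM with sgHcar1), were higher too. The gene that was lower was Aars, alanyl-tRNA synthetase (80.7 ± 2.60 FPKM with sgControl and 57.9 ± 2.21 FPKM with sgHcar1), which lies in the run of lower neighbours on chromosome 8 described below. In the lactate libraries 18 of these genes were higher with sgHcar1 and 14 lower, with a median of 0.046.

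The promoters of ATF4 targets are shown for the element they are known for, a joint site of C/EBP and ATF factors, searched here as TGATGNAA on both strands. The 3 genes with the largest differences and a match in the 250 bases before the start are given 5′ to 3′ on the gene's strand, from RefSeq on GRCm38.p6, with the match in capitals.
Vldlr, chr19:27216770-27217019, plus strand: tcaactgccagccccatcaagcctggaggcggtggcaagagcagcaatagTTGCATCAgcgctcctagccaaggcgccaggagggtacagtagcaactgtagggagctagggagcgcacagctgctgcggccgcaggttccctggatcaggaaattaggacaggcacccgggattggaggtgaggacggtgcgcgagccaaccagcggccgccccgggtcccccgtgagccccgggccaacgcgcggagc
Asns, chr6:7693210-7693459, minus strand: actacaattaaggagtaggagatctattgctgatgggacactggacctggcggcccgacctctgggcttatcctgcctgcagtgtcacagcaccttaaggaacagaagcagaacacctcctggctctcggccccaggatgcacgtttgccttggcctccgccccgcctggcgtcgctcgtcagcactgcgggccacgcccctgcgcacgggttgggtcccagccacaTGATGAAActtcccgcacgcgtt
Chac1, chr2:119350992-119351241, plus strand: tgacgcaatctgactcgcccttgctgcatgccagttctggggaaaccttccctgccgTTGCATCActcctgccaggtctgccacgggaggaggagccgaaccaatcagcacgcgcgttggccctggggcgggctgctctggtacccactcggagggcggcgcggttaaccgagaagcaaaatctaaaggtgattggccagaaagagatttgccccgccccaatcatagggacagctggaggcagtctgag
Chac1, which degrades glutathione, was at 11.002 ± 0.309 FPKM with sgControl and 38.2 ± 1.79 FPKM with sgHcar1. Of the 37 tested genes of ATF4 and its targets 31 (83.8%) had a promoter sequence. Of these, 12 (38.7%) held a match in its 300 bases, against 4.51% of all 27025 genes with a promoter. The sites do not overlap an ISRE match in these 6 sequences, and a match of letters is a description and not a site.

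Other stress groups held genes on both sides. Of 22 genes of the unfolded protein response 10 were higher and 8 lower (8 and 10 after rescaling to the same sum), and the median of 0.088 became -0.084 with that rescaling. The sensor genes Ern1 (3.88 ± 0.318 FPKM with sgControl and 18.9 ± 0.386 FPKM with sgHcar1) and Atf6 (5.96 ± 0.143 FPKM with sgControl and 22.6 ± 0.383 FPKM with sgHcar1) and the chaperone gene Hspa5 (137 ± 1.75 FPKM with sgControl and 289.6 ± 4.93 FPKM with sgHcar1) were higher, and the lectin chaperone genes Calr (246 ± 5.64 FPKM with sgControl and 141 ± 3.47 FPKM with sgHcar1) and Canx (169.9 ± 4.23 FPKM with sgControl and 86.03 ± 2.23 FPKM with sgHcar1) lower. Of 14 heat shock and metallothionein genes 5 were higher and 7 lower. Hspa1b, an inducible Hsp70 gene, was at 22.9, 21.7 and 23.4 FPKM with sgControl and 1.26, 1.42 and 1.55 FPKM with sgHcar1 (-3.30 ± 0.058), which was lower in each sgHcar1 library. Hspa1b has a near-identical neighbour, Hspa1a, so its level is uncertain. Of 22 genes of the NRF2 pathway and its targets 16 were higher and 4 lower, but 9 and 6 after rescaling to the same sum. Nqo1, the quinone reductase gene often used to read NRF2, was at 22.8, 21.9 and 22.8 FPKM with sgControl and 0.497, 0.461 and 0.583 FPKM with sgHcar1 (-3.96 ± 0.049), and Cbr3, a carbonyl reductase gene, was at 4.27 ± 0.285 FPKM with sgControl and listed at 0 with sgHcar1. Hmox1, which breaks down heme, was higher (8.65 ± 0.926 FPKM with sgControl and 24.4 ± 2.66 FPKM with sgHcar1).

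Hypoxia and glycolysis genes were mostly higher in sgHcar1 cells. Of 21 genes of the hypoxia response outside glycolysis, HIF pathway genes among them, 18 were higher and 3 lower (median 0.80). Car9 was at 4.13, 3.36 and 3.59 FPKM with sgControl and 193, 190.4 and 183 FPKM with sgHcar1 (5.34 ± 0.061, adjusted p = 3.19e-09). Apln, which encodes a vascular peptide, was at 6.58, 6.23 and 5.38 FPKM with sgControl and 80.2, 78.995 and 77.7 FPKM with sgHcar1 (3.50 ± 0.064). Car12, another membrane carbonic anhydrase gene, was listed at 0 in the 3 sgControl libraries and at 5.93 ± 0.489 FPKM with sgHcar1. Car9 and Apln were higher in every sgHcar1 library than in any sgControl library. Car12 was tested through the sgHcar1 libraries alone, so its direction was set by the filter. The same list held Egln3, a HIF prolyl hydroxylase gene, which was lower (19.97, 19.2 and 17.5 FPKM with sgControl and 0.121, 0.0245 and 0.0454 FPKM with sgHcar1, -4.22 ± 0.067). It also held Nrn1, at 39.01 ± 2.19 FPKM with sgControl and listed at 0 with sgHcar1. Egln3 and Nrn1 were tested through the sgControl libraries alone, so the filter set their direction too. Of 12 glycolysis genes tested 8 were higher and 3 lower (median 0.61), and with quantile normalization the counts were 7 and 3 and the median 0.32. Eno2, the neuronal enolase gene, was at 1.43, 1.32 and 1.57 FPKM with sgControl and 71.2, 70.01 and 66.8 FPKM with sgHcar1 (4.85 ± 0.049), Gpi1 at 55.1 ± 1.48 FPKM with sgControl and 175 ± 1.69 FPKM with sgHcar1 and the glucose transporter gene Slc2a1 at 79.4 ± 4.04 FPKM with sgControl and 171 ± 2.92 FPKM with sgHcar1. The 3 that were lower all belong to the phosphofructokinase step or its regulation, Pfkm (24.9 ± 0.659 FPKM with sgControl and 16.02 ± 0.0788 FPKM with sgHcar1), Pfkp (20.4 ± 0.671 FPKM with sgControl and 12.5 ± 0.533 FPKM with sgHcar1) and Pfkfb4 (2.41 ± 0.131 FPKM with sgControl and 1.71 ± 0.289 FPKM with sgHcar1). Pfkl, a further phosphofructokinase gene of the list, went the other way (difference 0.39), so the step did not move as a whole.

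Genes of lactate handling were higher more often than lower. Of 17 genes for making, moving and burning lactate and pyruvate 11 were higher and 5 lower (median 0.23). After rescaling to the same sum the counts were 8 and 5 and the median 0.063. Ldha, which makes lactate from pyruvate, was at 1089.5, 1140.3 and 1057 FPKM with sgControl and 1821, 1841 and 1791 FPKM with sgHcar1 (0.73 ± 0.038, adjusted p = 2.61e-06). The transporter gene Slc16a1 (MCT1) was at 23.6, 23.3 and 22.5 FPKM with sgControl and 55.4, 53.4 and 51.1 FPKM with sgHcar1 (1.17 ± 0.037, adjusted p = 2.61e-07). Bsg, the chaperone of both main lactate transporters, was at 393 ± 16.9 FPKM with sgControl and 677 ± 18.98 FPKM with sgHcar1, higher as well. Emb, the alternative chaperone, was at 3.28 ± 0.233 FPKM with sgControl and listed at 0 with sgHcar1. Pdk2, a brake on pyruvate oxidation, was lower (2.32 ± 0.109 FPKM with sgControl and 0.219 ± 0.0471 FPKM with sgHcar1). Of 15 carbonic anhydrases and acid-base transporters 6 were higher and 7 lower. Car9 and Car6 (0.272 ± 0.0502 FPKM with sgControl and 16.4 ± 0.817 FPKM with sgHcar1) were among the former, and Car13 (42.8 ± 0.756 FPKM with sgControl and 6.09 ± 0.537 FPKM with sgHcar1) among the latter.

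Lipid and mitochondrial groups differed in direction. Of 25 cholesterol genes 19 were lower and 2 higher (median -0.47). Dhcr7, an enzyme of the last steps of the synthesis, was at 28.2, 28.9 and 30.1 FPKM with sgControl and 10.4, 10.2 and 9.29 FPKM with sgHcar1 (-1.46 ± 0.049). The synthase gene Hmgcs1 was at 141 ± 4.28 FPKM with sgControl and 80.001 ± 4.62 FPKM with sgHcar1. Of 26 fatty acid genes 14 were higher and 11 lower, but 10 and 11 after rescaling to the same sum, with the desaturase gene Scd1 at 86.9 ± 1.93 FPKM with sgControl and 176 ± 2.17 FPKM with sgHcar1 and Cpt1c at 10.1 ± 0.236 FPKM with sgControl and 0.0149 ± 0.0129 FPKM with sgHcar1. Nuclear genes of the respiratory chain were higher for 24 of 37 and lower for 9 (19 and 12 after rescaling to the same sum), with Ndufa4 at 60.7 ± 3.43 FPKM with sgControl and 150.3 ± 7.90 FPKM with sgHcar1 and the cytochrome c gene Cycs at 18.1 ± 1.23 FPKM with sgControl and 60.2 ± 4.60 FPKM with sgHcar1.

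Genes of ribosomal proteins were higher as a group. Of 46 tested 39 were higher and 1 lower (median 0.64). With quantile normalization the counts became 27 and 11 and the median 0.34. Rplp0, of the ribosomal stalk, was at 1384, 1348 and 1398 FPKM with sgControl and 2222, 2292 and 2293 FPKM with sgHcar1 (0.72 ± 0.033). Many of these genes have processed copies in the genome that share their reads, so single levels are uncertain. The gene that was lower was Rpl39 (282 ± 12.4 FPKM with sgControl and 192 ± 16.5 FPKM with sgHcar1, difference -0.55 ± 0.067), the widely used paralogue of Rpl39l, which was the largest rise of the list. The near-identical pair may share reads, so both levels are uncertain.

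Replication genes were mostly lower and p53 targets mostly higher in sgHcar1 cells. Of 33 DNA replication genes 25 were lower and 6 higher (median -0.46). The helicase genes Mcm5 (176, 175 and 179 FPKM with sgControl and 61.2, 64.5 and 64.96 FPKM with sgHcar1, -1.46 ± 0.031) and Mcm6 (104 ± 3.37 FPKM with sgControl and 48.9 ± 1.30 FPKM with sgHcar1) were lower, and the cyclin E gene Ccne1 was the largest rise of the list (8.18 ± 0.369 FPKM with sgControl and 25.4 ± 1.32 FPKM with sgHcar1). Of 33 mitosis genes 17 were higher and 9 lower, none of them by 2-fold, and after rescaling to the same sum the counts were 7 and 14. For 13 cell cycle inhibitors and D-type cyclins the counts were 6 higher and 7 lower. Of 28 genes of p53 and its targets 19 were higher and 7 lower, 11 of them at least 2-fold higher. Mdm2, which targets p53 for breakdown, was at 9.23, 8.77 and 7.82 FPKM with sgControl and 32.1, 30.6 and 31.7 FPKM with sgHcar1 (1.76 ± 0.058), Bax at 80.5 ± 1.97 FPKM with sgControl and 224 ± 1.33 FPKM with sgHcar1 and Cdkn1a at 48.5 ± 0.868 FPKM with sgControl and 113 ± 0.185 FPKM with sgHcar1. Trp53 itself was lower (127, 127 and 118 FPKM with sgControl and 40.6, 41.6 and 44.6 FPKM with sgHcar1, -1.53 ± 0.046), and the BH3-only gene Pmaip1 was at 11.4 ± 0.871 FPKM with sgControl and listed at 0 with sgHcar1.

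The differences were not spread evenly over chromosomes. Of the tested genes, 10795 could be placed by symbol in the RefSeq annotation of GRCm38. On chromosome 8, 471 of 618 genes (76.2%) were lower and 79 higher, with a median difference of -0.59. Chromosomes 14 (363 genes, median -0.45) and 11 (929 genes, median -0.41) followed, with 69.97% and 65.7% of genes lower. At the other end were chromosomes 6 (497 genes, median 0.26) and 5 (700 genes, median 0.23), with 56.7% and 56.6% of genes higher. The guide difference in the lactate libraries had medians of -0.61, -0.45, -0.42, 0.24 and 0.24 on these 5 chromosomes. Among runs of 20 neighbouring tested genes the lowest median was on chromosome 8, from Cmtr2 to Znrf1, at -1.74, with 17 genes lower and 0 higher. There the Golgi gene Glg1 was at 124, 117 and 117 FPKM with sgControl and 21.8, 21.7 and 22.6 FPKM with sgHcar1 (-2.38 ± 0.034) and the splicing factor gene Sf3b3 at 199.8, 191 and 194 FPKM with sgControl and 65.4, 63.4 and 63.8 FPKM with sgHcar1 (-1.59 ± 0.028). Il34, named above, lies in the same run. The highest run was on chromosome 4, from Rngtt to Nfx1, at 1.05, with 20 of 20 genes higher. The number of copies of each chromosome was not measured, so its part in these medians was not tested.

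**Figure D4:**
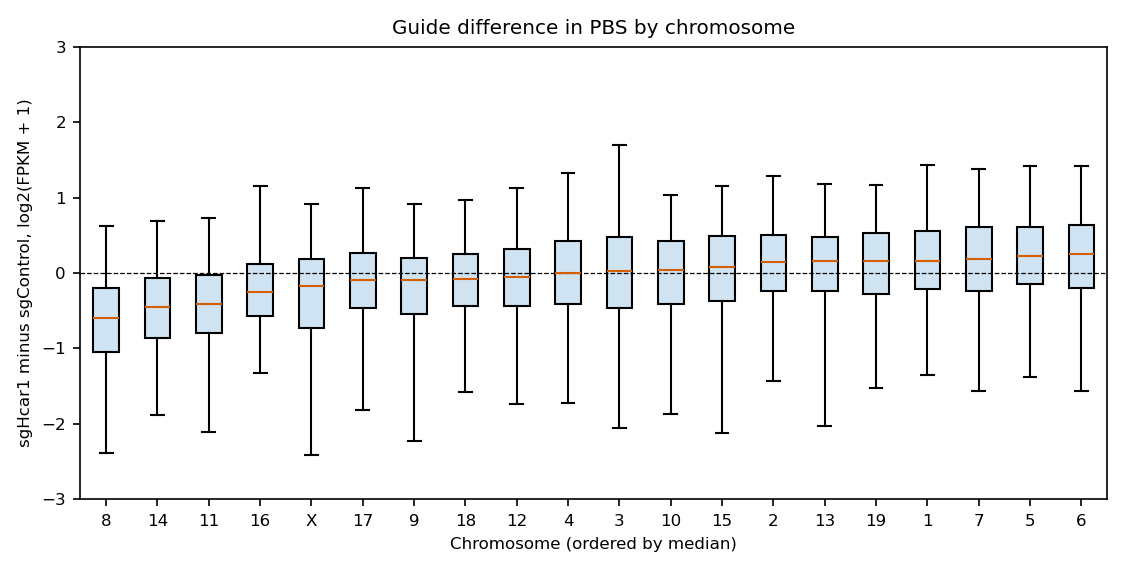
Difference of each tested gene, sgHcar1 minus sgControl in PBS on log2(FPKM + 1) (y axis, drawn from -3 to 3), by chromosome (x axis, ordered by median). Boxes span the middle 50% of genes with the median as a line, and whiskers reach percentiles 5 and 95. Chromosomes 8, 14 and 11 lie lowest with medians of -0.59, -0.45 and -0.41, and 5 and 6 highest.

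The same guide difference was read in the 6 lactate libraries, which share no library with PBS. There 10600 of the 12772 genes passed (83.0%), 5253 higher (41.1%) and 5347 lower (41.9%). Of all 10097 genes called in PBS, 8617 (85.3%) had the same sign in lactate. Of the 2708 genes with at least 2-fold differences in PBS, 2650 (97.9%) had the same sign in lactate, 2578 of them also called there, and 25 were called with the opposite sign. Across the 12772 genes, which are not independent replicates, the differences in PBS and in lactate correlated with a Pearson r of 0.870 and a Spearman rho of 0.800. In the lactate libraries Ccl2 had means of 921 FPKM with sgControl and 0.0637 FPKM with sgHcar1. Rpl39l was listed at 0 and had a mean of 225 FPKM in the same order. For 267 genes (2.09%) the 2 differences were apart by more than 2-fold in limma's test against that threshold.

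**Figure D5:**
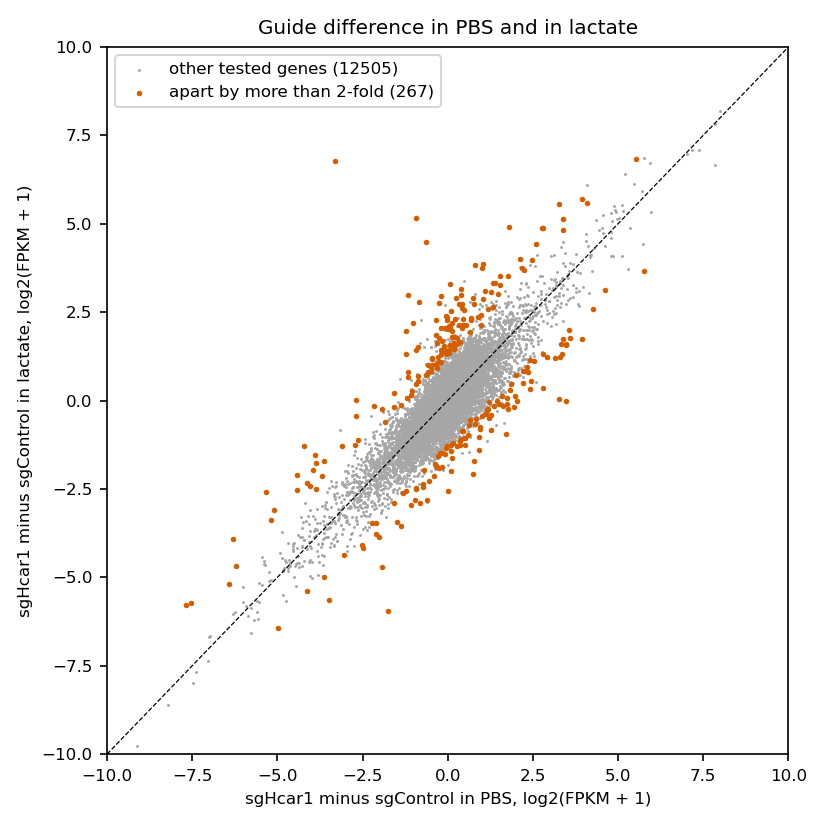
Guide difference, sgHcar1 minus sgControl on log2(FPKM + 1), in PBS (x axis) against the same difference in lactate (y axis) for 12772 genes. Orange points are the 267 genes whose differences were apart by more than 2-fold, the dashed line marks equal values, and most points lie near it (Pearson r of 0.870).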

How the data were processed

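RNA-seq of 12 MC38 libraries was deposited as 1 table of FPKM. Per the submitters' processing notes, the tools named are HISAT2 2.0.5 and featureCounts 1.5.0-p3 and the build named is GRCm38, while the gene identifiers in the file are those of the C57BL/6NJ annotation. Strand settings and filters are not given in the sources used here. The authors' deposited FPKM values were used without further scaling. Column names were matched to the labels, and the letter K was read as sgHcar1 by elimination, since C matched the control. The table has 42329 entries, 11920 of them without a gene symbol, and its FPKM values carry no counts.

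A gene was tested where 3 or more of the 6 PBS libraries reached 1 FPKM, and the test was made on log2(FPKM + 1) with limma 3.58.1 (R 4.3.3), with an intensity trend, moderated over these 6 libraries, and Benjamini-Hochberg adjustment over all 12772 genes. The difference between the guide differences in lactate and PBS was tested on all 12 libraries against a 2-fold threshold (limma's treat). The scripts were tested on simulated data. Alternatives were another pseudocount, other filters, 3 scalings, all 12 libraries, no trend, array weights, a replicate block and leaving out each library.

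The compared libraries, the 48 gene lists and the 7 marker lists were chosen with earlier results of these data known. Genes named are Hcar1, Hcar2, Ccl2 and Ccl7, the 12 largest rises and 12 largest falls among called genes that averaged 1 FPKM or more without overlap of the guides, and per list up to 5 called genes by difference and up to 3 by level. Some genes that meet this rule are not reported here. Named after their values were seen were Ifit2, Tnfaip3, Ptgs2, Aars, Rpl39, Pfkm, Pfkp and Pfkfb4, as the few exceptions of their lists, Krt8 as the partner of Krt18, Glg1 and Sf3b3 for their position, and Gbp3, Ifit1, Asns and Chac1 for their promoters. Promoters came from RefSeq on GRCm38.p6, matched by symbol.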

Additional observations from a re-analysis of the deposited data

Results flagged for a closer look

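For some of the named genes the guide difference in lactate stood apart from that in PBS by more than 2-fold, by limma's test of the difference itself against that threshold over 12 libraries (adjusted p under 0.05, 2.09% of all genes tested). Values below are the difference in lactate minus the difference in PBS on log2(FPKM + 1).

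The widest gap was at Hspa1b (10.08), where the guides differed by -3.30 in PBS and 6.79 in lactate. The inducible Hsp70 gene was thus lower in sgHcar1 cells with PBS and higher in them with lactate. Atf4 and its named targets with such a gap all had negative values, Trib3 (-3.51), Vldlr (-3.21), Chac1 (-2.66), Aldh1l2 (-2.45), Shmt2 (-2.07), Sesn2 (-1.69) and Atf4 (-1.44). Trib3 differed by 3.48 in PBS and -0.0239 in lactate, and Vldlr by 3.26 in PBS and 0.0457 in lactate. Chac1 changed sign, at 1.71 in PBS and -0.95 in lactate, and Atf4 did as well, at 1.16 in PBS and -0.28 in lactate.

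Genes that were lower in sgHcar1 cells with PBS and less so with lactate had positive values. They were Igfbp4 (2.39), Dusp1 (2.26), Cxcl1 (2.08), Nqo1 (1.99), Sox9 (1.91), Ly6a (1.81) and Car13 (1.51). Genes higher in sgHcar1 cells with PBS and more so with lactate were Hmox1 (1.92), Klf5 (1.79), Ereg (1.75) and Egr1 (1.497). For Egln3 (2.94), Nrn1 (2.72), Crip1 (1.91), Pmaip1 (-1.35), Car12 (-1.49) and Krt18 (1.31) 1 guide was at or near 0 FPKM in both conditions, so their values only follow the level with the other guide. The sgControl means in PBS and lactate were 18.9 and 1.43 FPKM for Egln3, 39 and 5.07 FPKM for Nrn1, 219 and 60 FPKM for Crip1 and 11.4 and 30.6 FPKM for Pmaip1. The sgHcar1 means were 5.93 and 1.48 FPKM for Car12 and 46.2 and 113 FPKM for Krt18. Genes higher with PBS and less so with lactate were Col1a1 (-1.83), Rtp4 (-1.49) and Spp1 (-1.26). The cause of these gaps was not tested. With 3 libraries in a group, single libraries were not searched for outliers.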

How the results depend on the processing

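The counts of called genes ran from 9706 to 9805 when single libraries were left out (4824 to 4879 higher, 4858 to 4926 lower), and the counts at 2-fold from 2710 to 2738 (1169 to 1185 higher, 1541 to 1554 lower). A filter at a mean of 5 FPKM tests fewer genes and gave 6705 calls, 3277 of them lower, with 1341 at 2-fold, 595 higher and 746 lower. Without a filter there were 12242 calls. Labels share replicate numbers across the guides, but same-numbered libraries did not deviate together (correlations of -0.017, -0.007 and -0.040), so the numbers were not taken to pair them. With a replicate block 9997 genes passed, 4999 higher and 4998 lower.

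Some list medians changed sign. With libraries scaled to the same FPKM sum, small medians did so for the unfolded protein response (0.088 to -0.084), TGF-beta and BMP genes (0.027 to -0.15), YAP and TEAD genes (0.075 to -0.090) and mitosis (0.11 to -0.066). With the filter at 5 FPKM, which tests fewer genes of each list, larger ones did so as well. These were angiogenic factors (0.88 to -0.46), colon differentiation (0.40 to -0.45), prostaglandin enzymes (0.21 to -0.62), junction and keratin genes (-0.23 to 0.28), MHC genes (0.18 to -0.067) and cell cycle inhibitors and D-type cyclins (-0.082 to 0.35). The median of carbonic anhydrases and acid-base genes, -0.0079 in the report's fit, was 0.085 with quantile normalization. It ran from -0.085 to 0.084 when single libraries were left out, being above 0 without sgControl replicate 2 (0.055), sgControl replicate 3 (0.0065) or sgHcar1 replicate 1 (0.084). Among named genes Vim alone changed sign, to -0.011 with the same FPKM sum and -0.26 with quantile normalization, and Cxcl10 passed under 3 alternatives. The deposited FPKM come without counts, so no counting interval could be set for a single library.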

Other observations

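Genes that are silent in most adult tissues and guarded by DNA methylation were outside the comparisons above. Of 26 such germline genes with an entry 3 reached the level for testing, Sycp1 and Gpat2 of them through the sgHcar1 libraries alone, so that their direction was set by the filter. Rhox5, a homeobox gene of the X chromosome, was at 13.5, 12.7 and 13.97 FPKM with sgControl and 456, 482 and 474 FPKM with sgHcar1 (difference 5.03 ± 0.04). Sycp1, of the meiotic synaptonemal complex, was listed at 0 with sgControl and at 2.26 ± 0.241 FPKM with sgHcar1, and Gpat2 was at 0.0298 ± 0.0122 FPKM with sgControl and 1.98 ± 0.110 FPKM with sgHcar1. Of 5 imprinted genes tested 2 were higher and 2 lower, with Phlda2 (3.43 ± 0.494 FPKM with sgControl, listed at 0 with sgHcar1) and Igf2r (24.5 ± 0.411 FPKM with sgControl and 7.45 ± 0.251 FPKM with sgHcar1) lower. Chromatin regulators were split, 14 higher and 20 lower of 40, with the remodeller gene Smarca2 at 15.5 ± 0.302 FPKM with sgControl and 2.93 ± 0.206 FPKM with sgHcar1 and the deacetylase gene Sirt1 at 6.43 ± 0.331 FPKM with sgControl and 0.952 ± 0.0417 FPKM with sgHcar1.

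DNA repair genes were lower for 16 of 28 and higher for 6. Mgmt, which removes alkyl groups from guanine, was at 10.3 ± 1.11 FPKM with sgControl and listed at 0 with sgHcar1. Ercc1, of nucleotide excision repair, was at 9.89, 8.94 and 9.14 FPKM with sgControl and 90.2, 88.4 and 89.8 FPKM with sgHcar1 (difference 3.13 ± 0.04). Among 23 genes of the BCL2 family, caspases and gasdermins, 8 were higher and 12 lower. Casp1, the inflammatory caspase gene, was at 0.251 ± 0.0398 FPKM with sgControl and 10.2 ± 1.06 FPKM with sgHcar1 and Gsdmd, whose product it cuts to open membrane pores, was at 49.5 ± 4.18 FPKM with sgControl and 10.5 ± 0.432 FPKM with sgHcar1, in opposite directions. Of 13 S100 and Ly6 genes 5 were higher and 7 lower, led by S100a7a and Ly6a.

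Several genes near 0 with sgHcar1 were neighbours once genes low in both populations were left out. A search made after the data had been seen looked for at least 3 neighbouring entries with a mean of at least 1 FPKM with one guide and under 0.1 FPKM with the other, in the gene order of RefSeq on GRCm38. Entries with a mean under 1 FPKM with both guides, or without a matching symbol, were skipped. Other genes may therefore lie between those named. It found 12 runs low with sgHcar1 and 1 low with sgControl. The longest held 6 entries on chromosome 11, Myo1d, Tmem98, Gm11419, Ccl2, Ccl7 and Ccl8, whose means with sgControl ran from 2.11 to 597.5 FPKM and with sgHcar1 reached at most 0.0719 FPKM. On chromosome 15 Hotair, Hoxc11, Hoxc10, Hoxc9 and Hoxc8 formed a run of 5. Runs of 4 were Krt13, Krt19, Krt14 and Krt16 on chromosome 11, Mmp2, Lpcat2, Capns2 and Ces1a on chromosome 8, and Armcx4, Armcx1, Armcx3 and Armcx2 on the X chromosome. The run low with sgControl was Slc16a11, Slc16a13 and Bcl6b on chromosome 11. Whether the DNA of these stretches is present was not tested.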
